A study of Mus musculus with 18 samples.

Results

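The comparison is between regulatory T cells (Tregs) that were heritably tagged by tamoxifen in adult life and the untagged Tregs of mice treated in the same way. All mice were NOD, a strain that develops autoimmune diabetes, and carried a Foxp3-eGFP-Cre-ERT2 allele together with a Rosa26-YFP lineage reporter. The allele makes a GFP-marked recombinase in cells that express Foxp3. Tamoxifen activates it, and a cell in which it acts, with its descendants, stays YFP+. Mice of the adult treatment received 4 injections between 35 and 45 days of age. Spleen cells of females were taken at 60 days of age and sorted as GFP+YFP+ (adult-tagged, replicates 1, 2 and 3) or GFP+YFP- (adult-untagged, replicates 3, 4 and 5). Tagging reaches only cells that express Foxp3 during the treatment, and the share of Tregs tagged is not given in the sources used here. The untagged cells are the GFP+ bulk that did not switch on YFP, whether Foxp3 came on later or recombination did not occur. A further 2 spleen groups of 3 arrays each came from mice of the same genotype, sex and age injected 4 times between days 0 and 10 (perinate-tagged, perinate-untagged) and served for comparison. The members are the 6 arrays of the adult treatment out of 18 in the series, each an Affymetrix Mouse Gene 1.0 ST array of 1 sample, and the genes are the 19752 that a probe set with a single gene symbol represents. Of these, 10350 were bright enough to be tested. Values are log2 intensities unless another scale is named, differences are tagged minus untagged on the log2 scale with their standard error (SE), and a gene is called when its limma p adjusted by Benjamini-Hochberg over the 10350 genes is under 0.05. Whether a replicate is 1 mouse, a pool or a repeat preparation is not stated in the labels. The p-values therefore reflect the spread among these samples alone, and that spread may be technical.

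Tregs restrain immune responses through the transcription factor Foxp3. In the spleen they include resting cells, which recirculate through lymphoid tissue with the chemokine receptor Ccr7 and quiescence factors such as Bach2, and effector cells, which have met antigen, divide, and carry inhibitory receptors (Tigit, Ctla4), the costimulator Icos, chemokine receptors for inflamed tissue and suppressive cytokines such as Il10. A cell that divides transcribes the genes of DNA replication and then, in the last phases of the cycle, those of mitosis: cyclin A2 and Cdk1, kinesin motors, centromere proteins and the enzymes that condense and separate chromosomes.

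The 6 arrays held Tregs, and 1 of them stood apart. Foxp3 read 12.35, 12.28 and 12.13 on adult-tagged replicates 1, 2 and 3 and 11.88, 12.09 and 12.26 on adult-untagged replicates 3, 4 and 5. Those ranges overlapped, and the T cell receptor subunit Cd3e lay between 12.77 and 13.18 on the 6 arrays. The B cell surface gene Ms4a1 lay between 4.98 and 6.17 and the macrophage lysozyme Lyz2 between 5.58 and 6.37. Summed linear intensity of the 13 B cell markers was 1277 to 1318 on tagged and 1190 to 1446 on untagged arrays, with 3 markers at background on all 6 arrays. For the 21 myeloid markers the sums were 2669 to 3076 and 3252 to 3863 with 1 marker at background, and for the 16 NK and CD8 T cell markers 1797 to 2242 and 2782 to 3208 with 6 at background. Both lists were thus higher on every untagged array, and they include genes that effector Tregs also use, such as Nkg7. Their part in the results was not tested. Background here means the level of 3 Y-linked transcripts on these female arrays, 3.95 to 5.86. In bulk samples, fewer cells of a type and less RNA per cell cannot be told apart.

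Adult-untagged replicate 3 carried transcripts of pancreatic islets. Islet amyloid polypeptide (Iapp) read 12.26 there and 5.22 to 6.22 on the other 17 arrays of the series, and the insulin gene Ins2 read 11.98 against 6.36 to 7.04. Chromogranin A (Chga, 10.13 against at most 7.27), somatostatin (Sst, 9.80 against at most 7.55) and the granule protein Scg3 (7.47 against at most 4.98) were raised likewise. Of 18 islet endocrine genes on the array, all 18 were highest on this array and 7 exceeded every other array by more than 1, among only 8 of all 19752 genes that did so. Of 11 exocrine pancreas genes, 1 was highest there and 0 exceeded the other arrays by more than 1. These lists were drawn up after the signal was seen. Over all 10350 tested genes, which include some islet genes, this array also lay nearer to the tagged arrays than to its own group. Its correlation was 0.965, 0.980 and 0.979 with adult-tagged replicates 1, 2 and 3, and 0.952 and 0.945 with adult-untagged replicates 4 and 5. Perinate-untagged replicate 3, which has the same number, deviated from its own group in the same way (correlation of the deviations 0.63). Its correlation was 0.980, 0.990 and 0.987 with adult-tagged replicates 1, 2 and 3, and 0.958 and 0.962 with perinate-untagged replicates 4 and 5. The part of either fact in the results was not tested, and the main results are therefore given with and without adult-untagged replicate 3. Leaving out the untagged array most like the tagged ones tends to widen the differences and narrow the untagged spread. Calls gained that way are therefore no independent support. Array-wide measures did not separate the groups: the interquartile range was 2.65 ± 0.21 (SD, n = 3) on tagged and 2.77 ± 0.28 on untagged arrays (two-sided exact permutation test, p = 0.6, where 0.1 is the smallest p possible).

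**Figure D1:**
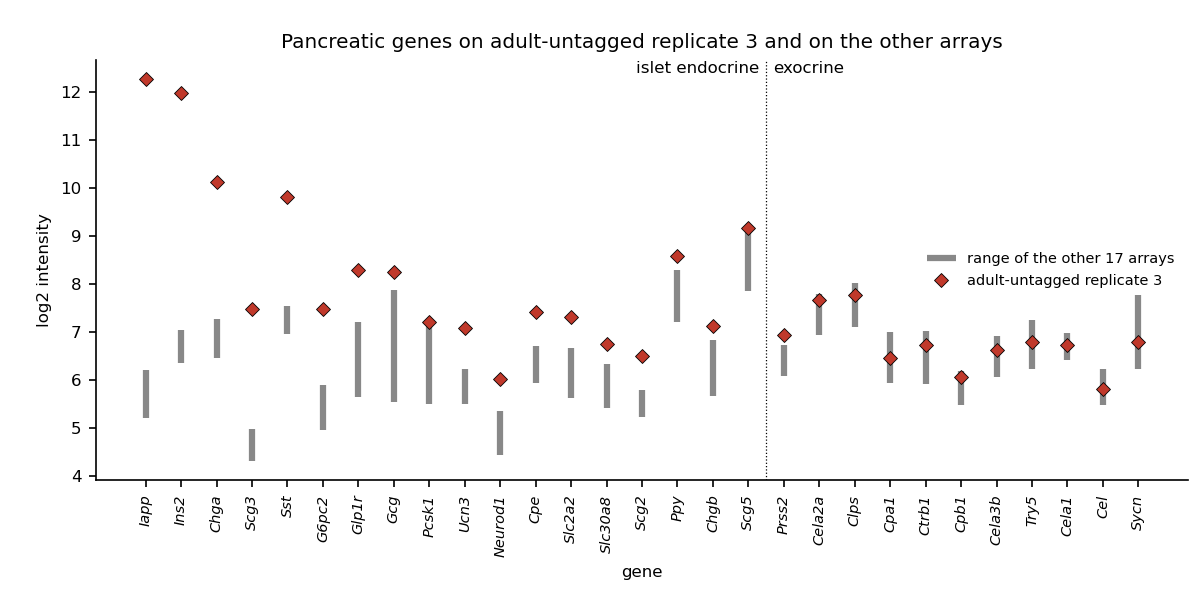
Log2 intensity (y axis) of 18 islet endocrine and 11 exocrine pancreas genes (x axis): diamonds are adult-untagged replicate 3 and grey bars the range of the other 17 arrays. Iapp at 12.26 and Ins2 at 11.98 lie far above the bars, and the exocrine genes lie within or close to them.

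Tagging against no tagging was first compared over all genes. Of 10350 tested genes 28 were called lower in the tagged cells (0.271%) and 0 higher (0%). Their differences ran from -0.75 (Egln3) to -1.78 (Prr11), with a median of -1.11, and 17 of them were at least 2-fold lower. The tagged and untagged ranges did not overlap for any of the 28. Of the 28, 10 are members of the mitosis list described below and 0 of the DNA replication list. Grouped by textbook role after the calls were seen, 22 are genes of cell division, and no such share was taken over all genes. The other 6 are Vdr, Pde3b, Maged1, Lancl2, Egln3 and the unnamed transcript 1700019D03Rik. At an unadjusted p under 0.05 in limma, 1107 genes were lower (10.7%) and 592 higher (5.72%), and the groups did not overlap for 1069 genes lower (10.3%) and 693 higher (6.7%). The median difference of all tested genes was -0.02. A trended, robust prior also called 0 genes higher, array weights called 4, a fit of the 6 arrays alone 8 and a fit of all 18 arrays 5.

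The number of calls depended on single arrays. Without adult-untagged replicate 3, 774 genes were called, 564 lower (5.44% of 10373) and 210 higher (2.02%), and these included all 28. Without adult-tagged replicate 1, adult-tagged replicate 3, adult-untagged replicate 4 or adult-untagged replicate 5, 0 genes were called in each case, with 913, 1291, 1521 and 1291 genes at an unadjusted p under 0.05. Without adult-tagged replicate 2 the count was 13, and without perinate-tagged replicate 2, which enters through the shared estimate of spread and the filter on low values, it was 17. Same-numbered arrays of the adult-untagged and perinate-untagged groups had correlated deviations from their group means (0.63, 0.14 and 0.47 for numbers 3, 4 and 5). Adult-untagged replicate 4 with perinate-untagged replicate 5 gave 0.30, and adult-untagged replicate 5 with perinate-untagged replicate 4 gave 0.27. Deviations from a mean of 3 arrays sum to 0, so the match of number 3 itself raises the values among numbers 4 and 5. Those values therefore cannot show whether number 4 or number 5 has a match of its own. Adult-tagged and adult-untagged arrays share only number 3. With the replicate number as a block 11 genes were called, 8 of them among the 28: Ccna2, Kif11, Mki67, Prr11, Nusap1, E2f8, Stil and Anln. Adult-tagged replicate 1 is the only spleen array with its number, so the block fits it exactly and it adds nothing to that contrast. Adult-tagged replicate 2 shares its number with perinate-tagged replicate 2 alone. The block also leaves fewer residual degrees of freedom than the main fit. The other 20 did not pass with the block, Cdk1 (adjusted p = 0.0532), Top2a (0.156) and Vdr (0.191) among them. Each of the 28 stayed lower in the tagged cells in every setting in which it was tested. Where arrays were only left out, that sign was fixed beforehand, because the ranges of the 28 did not overlap. The same holds for comparisons between some of the arrays, where only the sizes inform. Between the only arrays with the same number, adult-tagged replicate 3 and adult-untagged replicate 3, the median difference of the 28 was -0.90. Between the remaining arrays it was -1.17.

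**Figure D2:**
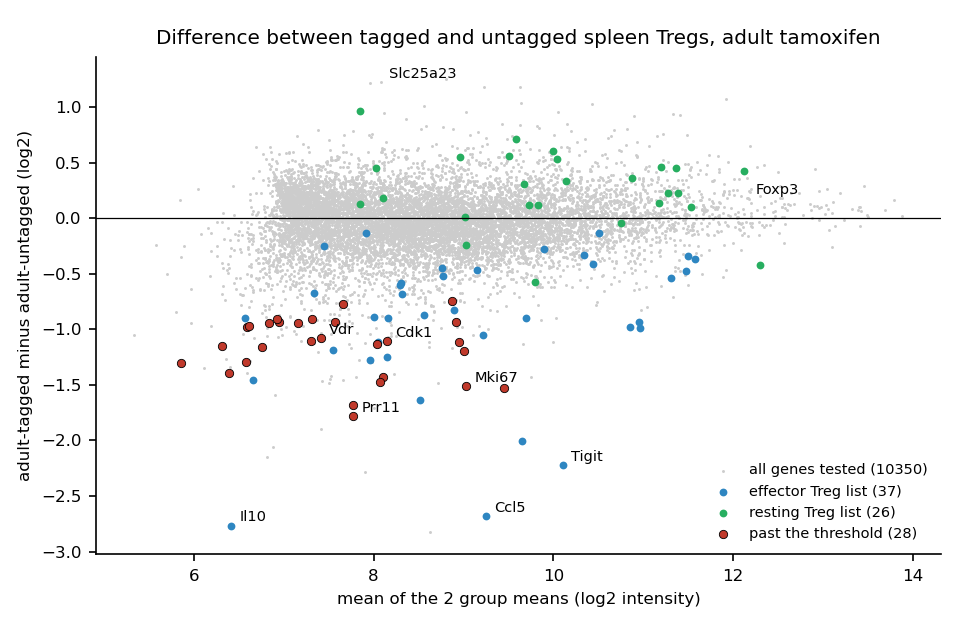
Difference between adult-tagged and adult-untagged means (y axis, log2) against the mean of both groups (x axis, log2 intensity) for 10350 genes, with the 28 called genes in red and 2 gene lists in colour. All 28 red points lie between -0.75 (Egln3) and -1.78 (Prr11), and the effector Treg genes Il10, Ccl5 and Tigit lie lower still without passing the threshold.

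Among the regulators of the cycle, Mki67, which encodes the proliferation antigen Ki-67 that coats mitotic chromosomes, read 7.83, 8.76 and 8.23 in tagged replicates 1, 2 and 3 and 9.52, 9.93 and 9.92 in untagged replicates 3, 4 and 5. On the linear scale these were 321 ± 105 (SD, n = 3) and 892 ± 139. The highest tagged array lay 0.76 below the lowest untagged one, and the gene was 2.85-fold lower (-1.51, SE 0.22, adjusted p = 0.0257; -1.65 without adult-untagged replicate 3). Ccna2, cyclin A2, which drives S phase and entry into mitosis, read 8.17, 9.33 and 8.55 against 9.98, 10.58 and 10.09, a 2.89-fold lower level (-1.53, SE 0.27, adjusted p = 0.0314). Cdk1, the kinase that starts mitosis, read 7.41, 7.78 and 7.59 against 8.51, 8.70 and 8.89 (-1.11, SE 0.17, adjusted p = 0.0257). Within both groups these values were tighter than the gap between them. Its partner Cks2 fell by 1.19, Mastl, the kinase that keeps Cdk1 substrates phosphorylated, by 1.31, and Dbf4, which activates the kinase Cdc7 at replication origins, by 0.93. The tagged mean of Mastl, 5.21, lay in the range of background, so its difference is a lower bound. Mastl and Kif4 were tested only because their perinate-tagged means (7.6 and 7.92) passed the filter on low values, and with a filter on the adult groups alone they were not tested and the other 26 genes were called.

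The machinery of the spindle was lower as well. Kif11, the kinesin that pushes the spindle poles apart, read 6.81, 7.91 and 7.45 in tagged replicates 1, 2 and 3 and 8.70, 8.86 and 8.90 in untagged replicates 3, 4 and 5 (-1.43, SE 0.22, adjusted p = 0.0257). The untagged arrays spanned 0.2 and the tagged arrays over 1, with replicate 1 the lowest. Nusap1, which bundles spindle microtubules, fell by 1.47, and Kif4, a chromosome-bound kinesin, by 1.15 from a tagged mean of 5.74 that lay at background. The centromere motor Cenpe fell by 0.98 and Cdca8, a subunit of the chromosomal passenger complex, by 0.93. Spag5 and Aspm, which act at spindle poles, fell by 0.97 and 0.94, the centriole duplication factor Stil by 1.30 and the microtubule destabiliser Stmn1 by 0.93. Of the genes that shape chromosomes, Top2a, which untangles sister DNA, read 7.21, 7.89 and 7.31 against 8.50, 8.48 and 8.82 (-1.13, SE 0.18, adjusted p = 0.0257). The condensin subunit Ncapg fell by 1.16 and the cohesin acetyltransferase Esco2 by 0.95. Anln, a scaffold of the contractile ring, fell by 1.39 from a tagged mean of 5.69 at background. Ube2c, the ubiquitin-conjugating enzyme that serves the anaphase-promoting complex, fell by 1.11 and the repressor E2f8 by 1.11. Prr11, a gene linked to the late phases of the cycle, had the largest difference of the 28: 6.57, 7.28 and 6.79 against 8.38, 8.88 and 8.72 (-1.78, SE 0.28, adjusted p = 0.0257).

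The promoters of genes that moved together are shown because late cell-cycle genes are known for 2 short elements, CCAAT, the site of the factor NF-Y, and TTTGAA, the form of the cell-cycle homology region. Sequences are those of RefSeq on GRCm38.p6, the 250 bases before the annotated start of 4 division genes that hold both elements and of Vdr, which holds neither; the 5 were chosen after the matches were seen. Capitals mark CCAAT or TTTGAA on either strand (ATTGG and TTCAAA are their reverse complements).
Cdk1 (chr10:69352913-69353162, minus strand): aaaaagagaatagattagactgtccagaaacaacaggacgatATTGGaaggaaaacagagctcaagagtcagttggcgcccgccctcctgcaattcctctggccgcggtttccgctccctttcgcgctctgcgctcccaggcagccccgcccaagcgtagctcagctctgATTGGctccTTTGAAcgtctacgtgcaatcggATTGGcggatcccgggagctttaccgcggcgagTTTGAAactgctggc
Kif11 (chr19:37376132-37376381, plus strand): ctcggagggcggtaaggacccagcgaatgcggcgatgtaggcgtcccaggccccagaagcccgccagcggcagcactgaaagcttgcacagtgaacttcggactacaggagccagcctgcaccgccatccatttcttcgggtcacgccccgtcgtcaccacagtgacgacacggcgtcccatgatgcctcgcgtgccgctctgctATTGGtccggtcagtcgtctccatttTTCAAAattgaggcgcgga
Top2a (chr11:99024190-99024439, minus strand): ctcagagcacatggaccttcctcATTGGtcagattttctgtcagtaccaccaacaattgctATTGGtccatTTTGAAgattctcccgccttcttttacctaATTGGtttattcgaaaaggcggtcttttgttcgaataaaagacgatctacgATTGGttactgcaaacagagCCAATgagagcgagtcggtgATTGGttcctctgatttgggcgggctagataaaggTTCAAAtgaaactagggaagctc
Mki67 (chr7:135716380-135716629, minus strand): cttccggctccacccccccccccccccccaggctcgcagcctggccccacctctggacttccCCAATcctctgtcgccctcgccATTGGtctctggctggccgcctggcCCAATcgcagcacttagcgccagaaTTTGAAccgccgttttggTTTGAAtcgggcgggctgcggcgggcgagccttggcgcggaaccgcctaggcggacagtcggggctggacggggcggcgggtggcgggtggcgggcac
Vdr (chr15:97908297-97908546, minus strand): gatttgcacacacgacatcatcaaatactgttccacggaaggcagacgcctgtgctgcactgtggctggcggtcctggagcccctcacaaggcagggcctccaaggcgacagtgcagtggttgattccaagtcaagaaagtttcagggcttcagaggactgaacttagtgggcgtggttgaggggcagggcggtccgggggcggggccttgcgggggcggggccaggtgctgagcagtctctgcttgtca
In these windows Cdk1 held 3 CCAAT and 2 TTTGAA, Kif11 held 1 and 1, Top2a 6 and 2, and Mki67 3 and 2, while Vdr held 0 and 0. The division genes Nusap1, Anln and Dbf4 also held 0 and 0. The promoter table held 23 of the 28 called genes. In a window of 250 bases before to 50 after the start, CCAAT occurred in 16 of the 23 (69.6%) against 38.9% of the 8351 tested genes with a promoter, and TTTGAA in 14 (60.9%) against 11.7%. Both occurred in 12 of 23 (52.2%) against 4.9%. Over the 250 bases before the start alone, TTTGAA occurred in 7 of 23 (30.4%) against 10.4%. A match says only that these letters are there.

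The other 6 called genes have no textbook part in division. Vdr, the vitamin D receptor, was among the tightest: 6.80, 6.94 and 6.89 in tagged replicates 1, 2 and 3 against 7.87, 7.81 and 8.18 in untagged replicates 3, 4 and 5 (-1.08, SE 0.17, adjusted p = 0.0257). The tagged arrays spanned 0.14, and even the islet-positive array lay within the untagged range. Pde3b, a phosphodiesterase that breaks down cyclic AMP and that Foxp3 is known to repress, read 6.49, 7.08 and 7.0 against 7.61, 7.69 and 7.99 (-0.91, SE 0.16, adjusted p = 0.0307). It was also the 1 call among the conventional CD4 T cell markers, and it was lower in tagged Tregs. Maged1, an adaptor of the melanoma antigen family, fell by 0.91, Egln3, a prolyl hydroxylase that senses oxygen, by 0.75, and Lancl2 by 0.77. The transcript 1700019D03Rik fell by 1.68, from 8.04, 9.13 and 8.67 to 6.68, 7.15 and 6.96.

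**Figure D3:**
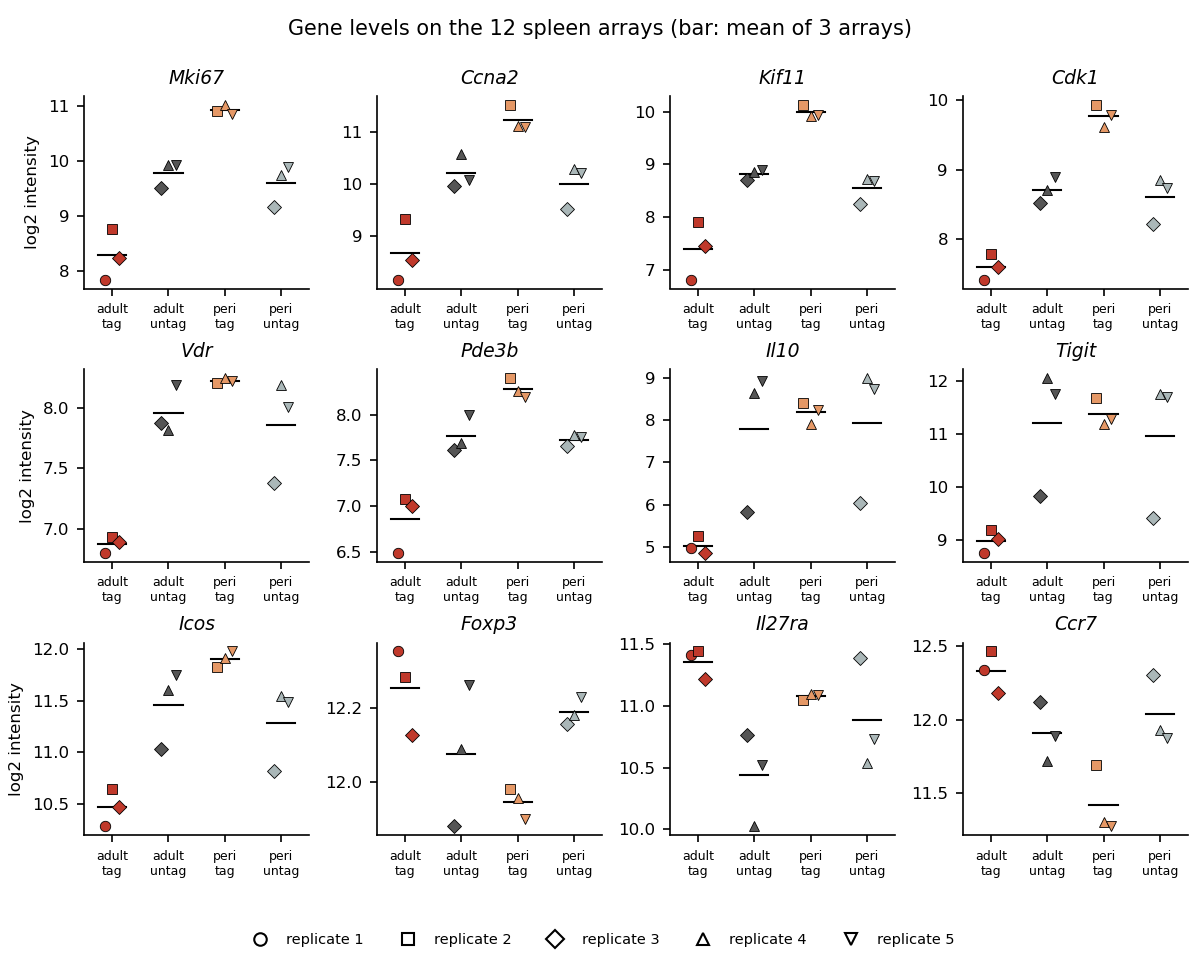
Log2 intensity (y axis) of 12 genes on the 12 spleen arrays (x axis: adult-tagged, adult-untagged, perinate-tagged, perinate-untagged), with 1 symbol per array, its shape giving the replicate number, and a bar at the mean of 3 arrays. Adult-tagged arrays lie below the other 3 groups for Mki67, Ccna2, Kif11 and Cdk1, and adult-untagged replicate 3 lies between the tagged arrays and untagged replicates 4 and 5 for Il10, Tigit and Icos.

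The mitosis list moved as a block, and the replication list less so. Of 33 tested mitosis genes 10 were called lower and 0 higher, against the background of 0.271%, and all 33 had negative differences with a median of -0.89 (all genes, -0.02). Groups did not overlap for 31 of the 33 (background 10.3%). The mean of the list was 6.75, 7.22 and 7.0 on tagged replicates 1, 2 and 3 and 7.72, 7.97 and 8.15 on untagged replicates 3, 4 and 5. Here the islet-positive array lay with its group. Without it 26 of 33 were called lower (5.44% of all genes), with a median of -1.07. Of 35 DNA replication genes 0 were called in limma and 12 were lower at an unadjusted p under 0.05 (10.7% of all genes). Differences were negative for 32, with a median of -0.24. Their list means were 7.90, 8.14 and 8.06 against 8.29, 8.15 and 8.44, ranges that came within 0.01 of each other. Tyms, thymidylate synthase, read 7.39, 7.62 and 7.58 against 8.28, 8.40 and 8.59 (-0.89, SE 0.20, adjusted p = 0.068), and the kinase Tk1 that salvages thymidine differed by -0.55 (adjusted p = 0.123). Neither passed. Without adult-untagged replicate 3, 3 of 35 replication genes were called lower, where 5.44% of all genes were. The 3 were Tyms, Tk1 and Pole, the catalytic subunit of DNA polymerase epsilon (adjusted p = 0.0192, 0.016 and 0.0345). That share is not far above the one over all genes.

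Effector Treg genes were lower in the tagged cells by about as much as the mitosis genes, but 0 of 37 passed in limma. All 37 had negative differences, the median was -0.88, 32 were lower at an unadjusted p under 0.05 (background 10.7%) and the groups did not overlap for 25 (background 10.3%). The list mean was 8.44, 8.73 and 8.65 on tagged replicates 1, 2 and 3, 9.02 on untagged replicate 3, and 9.67 and 9.89 on untagged replicates 4 and 5. All untagged arrays were above all tagged ones, and the islet-positive array stood between. Without that array 22 of 37 were called lower (5.44% of all genes), with a median of -1.0. Between the arrays numbered 3, 32 of 37 were lower in the tagged sample with a median of -0.30, and between the remaining arrays 36 of 37 with a median of -1.07.

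Single effector genes show the same pattern; those in this paragraph that are not of lowest p in their list or fixed by name were chosen after their values were seen. Il10, the suppressive cytokine interleukin 10, read 4.97, 5.27 and 4.85 in tagged replicates 1, 2 and 3 and 5.83, 8.65 and 8.91 in untagged replicates 3, 4 and 5. The tagged values are at background, so the difference of -2.77 (SE 0.72, adjusted p = 0.116) is a lower bound, and it became -3.75 (adjusted p = 0.00525) without untagged replicate 3. Ccl5, a chemokine that draws T cells, read 7.63, 7.83 and 8.28 against 9.04, 11.31 and 11.43 (-2.68, adjusted p = 0.102; -3.46, adjusted p = 0.00925 without that array). Tigit, an inhibitory receptor of effector Tregs, read 8.76, 9.20 and 9.03 against 9.84, 12.05 and 11.76 (-2.22, adjusted p = 0.103; -2.91, adjusted p = 0.00667). On replicates 4 and 5 each of these genes lay more than 1.5 above untagged replicate 3. Penk, the enkephalin precursor found in activated Tregs, differed by -2.0 (adjusted p = 0.0709; -2.55, adjusted p = 0.00585), and the chemokine receptor Ccr8 by -1.63 (adjusted p = 0.107; -2.09, adjusted p = 0.00964). Cxcl10, a chemokine for cells that carry Cxcr3, is a member of neither the effector Treg list nor the interferon response list. It had the largest difference of all tested genes, 7.40, 7.31 and 6.93 against 8.41, 11.07 and 10.62 (-2.82, adjusted p = 0.0754; -3.63, adjusted p = 0.00525). Icos came nearest to the threshold with all arrays: 10.28, 10.65 and 10.47 against 11.03, 11.60 and 11.74 (-0.99, SE 0.20, adjusted p = 0.0573; -1.21, adjusted p = 0.00612). Ctla4, the inhibitory receptor that Foxp3 maintains, read 10.29, 10.38 and 10.41 against 10.44, 11.63 and 11.94, so that untagged replicate 3 sat 0.03 above the tagged range (-0.98, adjusted p = 0.221; -1.42, adjusted p = 0.0159). Gzmb, a granule protease, differed by -1.28 (adjusted p = 0.202) and did not pass without that array either (-1.57, adjusted p = 0.0538). Klrg1, a receptor of terminally differentiated cells, read 6.79, 7.0 and 7.08 against 6.88, 8.59 and 8.97, groups that overlapped through untagged replicate 3 (-1.19, adjusted p = 0.243; -1.82, adjusted p = 0.0135).

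Genes higher in tagged cells did not pass with all arrays. The nearest was Gata1 (0.78, SE 0.16, adjusted p = 0.0596), a transcription factor better known from erythroid cells, at 8.37, 8.11 and 8.01 in tagged replicates 1, 2 and 3 against 7.61, 7.04 and 7.51 in untagged replicates 3, 4 and 5. Slc25a23, a calcium-dependent mitochondrial carrier, read 8.74, 8.79 and 8.54 against 7.73, 7.18 and 7.48 (1.23, SE 0.26, adjusted p = 0.0641). Il27ra, the receptor subunit for interleukin 27, read 11.41, 11.44 and 11.22 against 10.77, 10.02 and 10.52 (0.92, adjusted p = 0.0684). For all 3 genes the groups did not overlap, and each was called without adult-untagged replicate 3 (adjusted p = 0.0111, 0.0148 and 0.0116). Dtx1, a Notch pathway regulator linked to T cell anergy, read 11.81, 11.92 and 11.68 against 11.46, 10.31 and 10.83 (0.93, adjusted p = 0.122; 1.23, adjusted p = 0.00964 without that array). The kinase Mapk11 (1.04), the lipid enzyme Napepld (1.00), Ogdh of the citric acid cycle (0.96), the collagen chain Col6a4 (0.95), Bin2 (0.93), Acap1 (0.85), Ppp1r13b (0.85), Wdr46 (0.84) and the adhesion molecule L1cam (0.82) were the others of largest size without overlap. None of these 9 passed with all arrays, and all 9 were called without untagged replicate 3.

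Resting Treg genes were mostly higher in the tagged cells without passing. Of 26 tested, 0 were called in limma, 6 were higher and 1 lower at an unadjusted p under 0.05 (5.72% and 10.7% of all genes), and the median was 0.27. The list mean was 10.10, 10.27 and 10.14 on tagged arrays and 10.21, 9.64 and 9.90 on untagged replicates 3, 4 and 5, so untagged replicate 3 lay inside the tagged range. Ccr7, the lymph node homing receptor, read 12.34, 12.46 and 12.18 against 12.12, 11.72 and 11.89 (0.42, SE 0.16, adjusted p = 0.232). Bach2, a repressor of effector programs, differed by 0.60 (adjusted p = 0.209) and the receptor Il6ra by 0.46 (adjusted p = 0.198). Cxcr4, which retains cells in bone marrow, went the other way at 9.47, 9.54 and 9.53 against 9.67, 10.12 and 10.47 (-0.57, adjusted p = 0.234). The survival factor Bcl2 (0.23) and the T cell factor Lef1 (0.10) had overlapping groups. Without untagged replicate 3, 6 of 26 were called higher and 1 lower (2.02% and 5.44% of all genes), Il6ra and Cxcr4 among them (adjusted p = 0.0411 and 0.0415), and Ccr7 and Bach2 were not (0.0711 and 0.0574 by limma, adjusted).

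**Figure D4:**
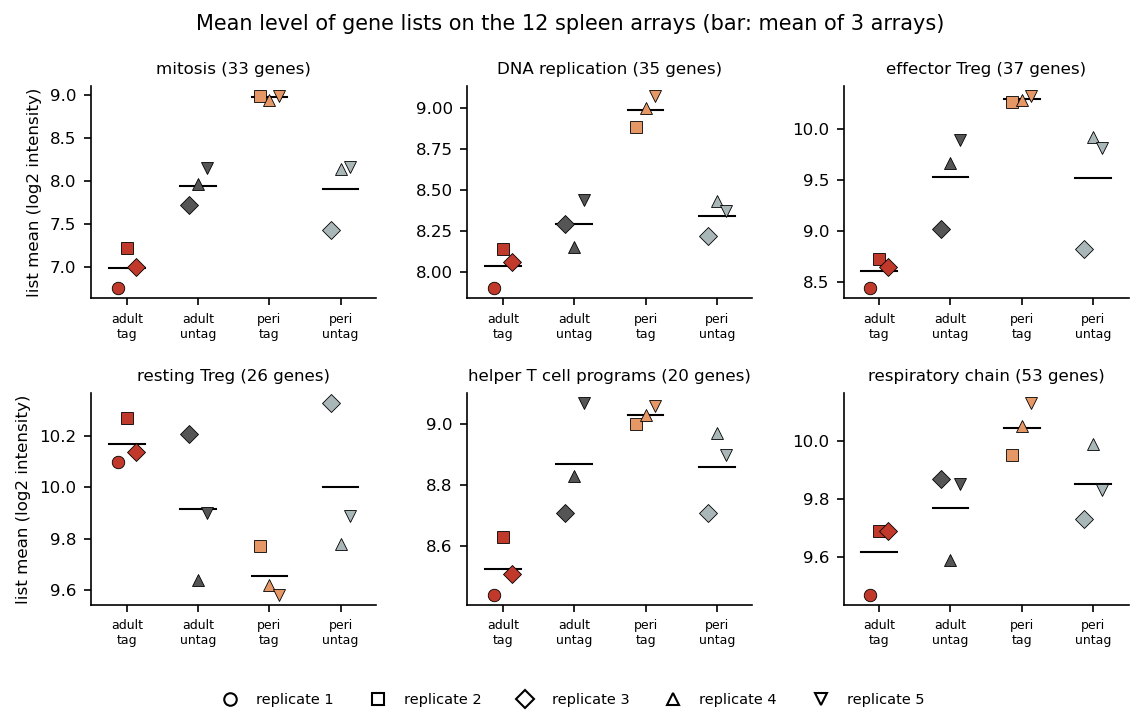
Mean log2 intensity (y axis) of 6 gene lists on the 12 spleen arrays (x axis, by group), with 1 symbol per array, its shape giving the replicate number, and a bar at the mean of 3 arrays. The adult-tagged arrays are lowest for mitosis (6.75 to 7.22) and effector Treg genes (8.44 to 8.73), and both untagged replicates 3 lie below the other untagged arrays of their group for effector genes and above them for resting genes.

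Of 25 Treg identity genes 0 were called in limma. At an unadjusted p under 0.05, 9 were lower and 3 higher (10.7% and 5.72% of all genes), and with members on both sides the median was -0.13. Il2ra, the high-affinity chain of the interleukin 2 receptor, read 12.59, 12.75 and 12.67 in tagged and 12.52, 12.37 and 12.27 in untagged arrays (0.29, adjusted p = 0.277). Foxp3 differed by 0.18 (SE 0.12, adjusted p = 0.475) and Ikzf2, the Helios factor, by -0.11 (adjusted p = 0.735), both with overlapping groups. Ebi3, a subunit of interleukin 35, read 7.33, 7.65 and 7.70 against 8.09, 8.61 and 8.64 (-0.89, adjusted p = 0.101). Nt5e (CD73), which makes adenosine, differed by -0.61 (adjusted p = 0.191) and Gpr83, a receptor of Tregs, by 0.74 (adjusted p = 0.195). Without adult-untagged replicate 3 Ebi3, Nt5e and Gpr83 were called, as part of 6 of 25 lower and 2 higher, where 5.44% and 2.02% of all genes were called (adjusted p = 0.0161, 0.0173 and 0.015).

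Signalling, helper and homing genes shifted in both directions, and 0 of them passed in limma with all arrays. Of 26 genes of T cell receptor and NF-kB signalling, 10 were lower and 1 higher at an unadjusted p under 0.05 (median -0.20), and of 28 immediate early genes 7 and 1 (median -0.22), against 10.7% lower and 5.72% higher over all genes. Egr2, a zinc finger factor induced by the T cell receptor, read 8.91, 9.30 and 9.21 in tagged and 9.49, 9.74 and 9.53 in untagged arrays (-0.45, adjusted p = 0.133). Of 20 helper T cell genes 10 were lower and 1 higher at that level, with a median of -0.42. Tbx21, the factor of type 1 helper cells, read 7.25, 7.63 and 7.47 against 7.98, 8.11 and 8.27 (-0.67, adjusted p = 0.111). The cytokine gene Il4 differed by -0.51 and the receptor chain Il12rb2 by -0.87. Il4 was tested only because its perinate-tagged mean (7.54) passed the filter on low values. It counts among the 10 helper genes lower here and the 9 called lower without untagged replicate 3. The decoy receptor Il1r2 differed by -1.90 (adjusted p = 0.178) and stood at 6.83 on untagged replicate 3 against 8.97 and 9.29 on replicates 4 and 5. Of 28 chemokine receptor and homing genes 9 were lower and 4 higher at that level. Cxcr3, which guides cells to type 1 inflammation, read 8.37, 8.74 and 8.95 against 9.22, 9.83 and 10.16 (-1.05, adjusted p = 0.135), and the gut-homing integrin chain Itgb7 was the reverse, 10.50, 10.31 and 10.40 against 10.03, 9.28 and 9.98 (0.64, adjusted p = 0.167). Without untagged replicate 3 the helper list had 9 of 20 called lower and 1 higher, and the homing list 7 of 28 lower and 3 higher, where 5.44% and 2.02% of all genes were called.

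None of the 29 interferon response genes was at an unadjusted p under 0.05 in either direction, 0 were called, and their median was -0.06. The adult groups did not overlap for 5 of the 29 lower and 5 higher (10.3% and 6.7% of all genes). Mx1, an antiviral GTPase chosen after its values were seen, read 6.02, 6.43 and 6.41 in tagged and 6.85, 7.41 and 7.76 in untagged arrays (-1.06, SE 0.62, adjusted p = 0.397). Its standard error takes in the perinate-tagged arrays, which read 6.36, 9.64 and 9.49. The mean of the interferon list was likewise 8.57, 10.32 and 10.26 there (SD 0.993, against 0.13 on adult-tagged and 0.147 on adult-untagged arrays). That spread enters the shared estimate, so the lack of calls in this list does not show an absence of difference. In a fit of the 6 adult arrays alone Mx1 was called, and with the replicate number as a block its difference turned to 0.50. The median of the 48 ribosomal protein genes was 0.00, that of 37 ribosome biogenesis genes 0.04 and that of 19 glycolysis genes 0.12. Of 53 respiratory chain genes 44 had negative differences (median -0.16) and 0 were called. At an unadjusted p under 0.05, 10 were lower and 1 higher (10.7% and 5.72% of all genes). Ndufa1, a subunit of complex I, read 7.0, 7.63 and 7.50 against 8.29, 8.21 and 7.89 (-0.75, adjusted p = 0.0884). Of 19 cholesterol synthesis genes 5 were higher and 1 lower at an unadjusted p under 0.05 (5.72% and 10.7% of all genes), with a median of 0.17. The regulator Srebf2 differed by 0.64 (adjusted p = 0.177). The inflammatory caspases were the lowest in p of the 22 apoptosis genes: Casp4 read 8.20, 8.85 and 8.71 against 9.33, 9.77 and 9.81 (-1.05, adjusted p = 0.0684) and Casp1 differed by -1.30 (adjusted p = 0.123). Without adult-untagged replicate 3, 5.44% of all genes were called lower and 2.02% higher. In that fit 3 of 22 apoptosis genes were called lower and 0 higher, Casp4 and Casp1 among them (adjusted p = 0.0135 and 0.0173). Of 19 cholesterol genes 4 were called higher, Srebf2 among them, and 1 lower, Sc5d.

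The same contrast after perinatal tamoxifen, made on other arrays, had the opposite sign for most of the called genes. There, 568 genes were called higher in tagged cells (5.49%) and 192 lower (1.86%). These counts include perinate-untagged replicate 3, which lay nearer to the adult-tagged arrays than to its own group, and are not given without it. Of the 28 genes lower after adult treatment, 25 were called higher after perinatal treatment. Both contrasts share 1 estimate of spread per gene, so a small spread favours a call in both and the 2 sets of calls are not independent. The difference of the differences, adult minus perinatal, was negative and called for 444 genes (4.29%) and positive for 62 (0.599%). Of the 28, 26 were among the negative calls. The adult difference that selected the 28 is a part of this measure, so negative calls among them were favoured beforehand. Mastl and Kif4, tested only through their perinate-tagged means, count among both the 25 and the 26. Mki67, at 10.90, 11.03 and 10.86 in perinate-tagged and 9.17, 9.74 and 9.89 in perinate-untagged arrays, differed by 1.33 there against -1.51 after adult treatment (difference -2.84, SE 0.31, adjusted p = 0.000132). The 2 untagged groups lay at similar levels, and the tagged groups lay on opposite sides of them. For the mitosis list 27 of 33 were called higher after perinatal treatment (median 1.18), and 32 of 33 had a called, negative difference of differences. For the effector list these counts were 12 and 17 of 37. The exceptions among the 28 were Maged1 (-0.12 after perinatal treatment, difference of differences -0.79, adjusted p = 0.0632) and 1700019D03Rik (-0.40 and -1.28, adjusted p = 0.083), and Vdr had a called difference of differences without a perinatal call (0.36, adjusted p = 0.23). Perinate-tagged replicate 2, labelled female, carried the Y-linked transcript Eif2s3y at 9.79, against at most 4.90 on the other spleen arrays; without it the difference of differences was called for 547 genes in place of 506. With a filter on the adult groups alone, which drops genes bright only in perinate-treated groups, it was called for 406, 353 negative and 53 positive, and with the replicate number as a block for 274.

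**Figure D5:**
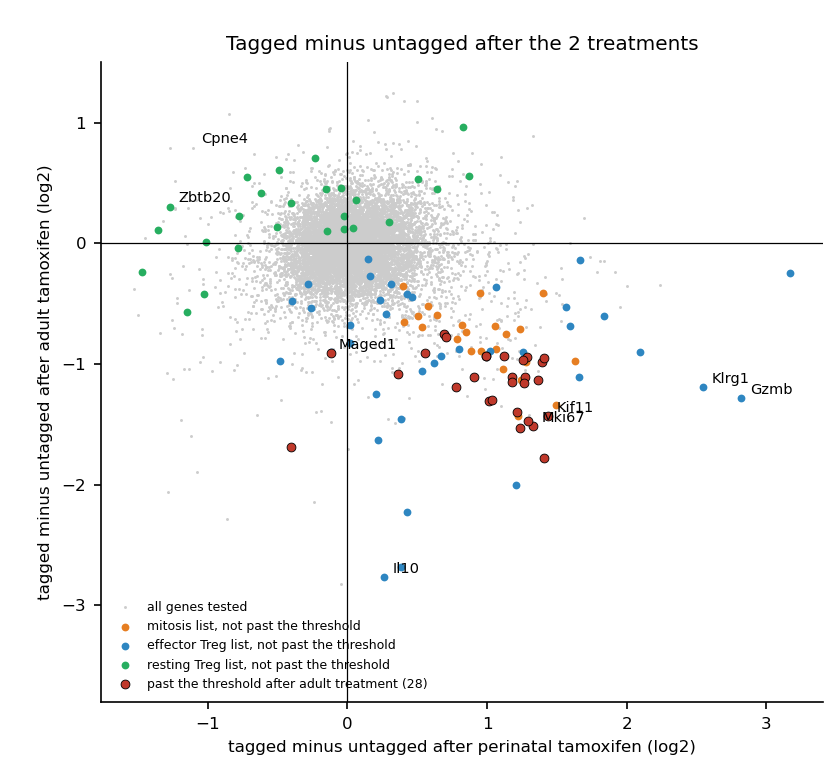
Tagged minus untagged difference after adult tamoxifen (y axis, log2) against the same difference after perinatal tamoxifen (x axis, log2) for 10350 genes, with the 28 genes called after adult treatment in red and other members of 3 lists in colour. Of the 28, 26 lie below 0 on the y axis and above 0 on the x axis, and Maged1 and 1700019D03Rik lie to the left of 0.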

How the data were processed

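RNA of sorted Tregs was hybridised to 18 arrays in 6 groups of 3, which the labels name. The deposited values are intensities per probe set on the linear scale (6.81 to 18850), which the authors made by RMA in Affymetrix Power Tools (the submitters' processing notes name both without a version). Probe sets were named from the platform annotation: of 24922, 21425 had 1 symbol, 1399 several and 2098 none. The probe set of highest mean was kept for each of 19752 genes. The log2 of each value was taken without adding a pseudocount. A gene was tested when its mean in at least 1 spleen group reached the median of all values (132.7). The 12 spleen arrays were fitted with limma 3.58.1 in R 4.3.3 (lmFit, eBayes, 1 coefficient per group, 8 residual degrees of freedom, prior 6.76), with Benjamini-Hochberg adjustment over 10350 genes and a threshold of 0.05. The code was tested on simulated data. Arrays have no read depth, so their number limits the precision.

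Comparison, gene lists and promoter elements were chosen with earlier results of these data known, and support nothing by their choice. The lists' counts are set beside those of all genes and were not tested as sets. Genes were named by rule: called genes without overlap, up to 12 a direction by size, filled up with genes of unadjusted p under 0.05; up to 4 members of lowest p per list; up to 8 a direction for the difference of differences; and a fixed set. Predicted genes and small RNAs were left out of the rankings, but the other called genes, 1700019D03Rik included, were all named after their values were seen. Replicate numbers were not used as pairs in the main test, since the 2 adult groups share 1 number; the block is an alternative. The alternatives are in the closing section. Promoters are RefSeq's (GRCm38.p6). The genome build behind the array values is not given in the sources used here. Plots used matplotlib 3.10.9 (Python 3.11.15).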

Additional observations from a re-analysis of the deposited data

Results flagged for a closer look

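The tagged minus untagged difference differed between adult and perinatal treatment, by the test of the difference itself in limma, for 506 genes, and for 406 where the filter on low values used the adult groups alone. Those of largest size on the negative side, lower in tagged cells after adult than after perinatal treatment, were Gzmb (-4.1), Klrg1 (-3.74), Myadm (-3.42), Penk (-3.21), Prr11 (-3.19), Fgl2 (-3.0), Kif11 (-2.87) and Mki67 (-2.84). Of these, Fgl2 was tested only because its perinate-tagged mean (9.12) passed the filter on low values, and it is not among the 406. For Myadm, a membrane protein of myeloid and T cells, the adult difference itself was -0.25 with overlapping groups, against 3.17 after perinatal treatment.

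On the positive side they were Cpne4 (1.9), Zbtb20 (1.57), Lncpint (1.51), Igf1r (1.47), Als2cl (1.42), St8sia1 (1.26), Pik3ip1 (1.23) and Cyria (1.2). None of these 8 was called in the adult contrast. Igf1r, the receptor of insulin-like growth factor 1, differed by 0.11 after adult and -1.36 after perinatal treatment, and Pik3ip1, an inhibitor of phosphoinositide 3-kinase, by -0.24 and -1.47. Groups of 3 arrays are too small for a rule on outlying samples.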

How the results depend on the processing

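Of the 28 calls, the count became 17 at a minimum 2-fold change, 17 without a filter, 16 with a pseudocount of 16, 71 with array weights, 120 in a fit of the 6 arrays alone and 99 in a fit of all 18. With the interquartile range as a covariate it was 0 (1689 genes at an unadjusted p under 0.05). Leaving out 1 array, an adult one or perinate-tagged replicate 2, gave 0 to 774. Choices made after seeing the data gave 1450 (both untagged replicates 3 left out) and 0 (adult-tagged replicate 1 and adult-untagged replicate 4, the narrowest arrays, left out, with 704 at an unadjusted p under 0.05), and 28 without the islet genes. The 2 adult groups share only number 3, whose arrays deviate together with r of 0.06. Same-numbered arrays of the 2 untagged groups do so with 0.63, 0.14 and 0.47. Adult-untagged replicate 4 with perinate-untagged replicate 5 gave 0.30, and adult-untagged replicate 5 with perinate-untagged replicate 4 gave 0.27. With the replicate number as a block over the 12 arrays, 11 genes were called, 8 of them among the 28. In effect that block leaves out adult-tagged replicate 1, the only spleen array with its number.

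The 506 genes of the difference of differences became 309 at 2-fold, 1077 with array weights, 274 with the replicate block and 247 without the narrowest arrays. Leaving out an adult array or perinate-tagged replicate 2 gave 279 to 679, and the other perinate arrays were not left out singly. Without both untagged replicates 3 the count was 630. Single genes turned sign in 8 cases, none of them called with all 12 arrays: Mx1 (0.50 with the block), Ikzf2 (0.041 with the block; -0.25 to 0.032 leaving out 1 array, positive without adult-untagged replicate 5), Lef1 (-0.091 with the block), Myadm (-0.47 to 0.12, positive without adult-untagged replicate 3, and 0.12 without both untagged replicates 3) and Igf1r (-0.11 to 0.34, negative without adult-untagged replicate 4, and -0.11 without the narrowest arrays). The causes were not tested. Of the list medians under the alternatives, 571 moved by less than the spread between replicates and 29 by more. Transcripts near background give lower bounds only.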

Other observations

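The islet signal of adult-untagged replicate 3 covered hormones of several endocrine cell types and their secretory machinery. Besides Iapp and Ins2, products of beta cells, and Sst of delta cells, the glucagon gene Gcg of alpha cells read 8.25, against a median of 6.29 and a highest value of 7.87 on the other 17 arrays. Pancreatic polypeptide (Ppy) read 8.58 against a median of 7.77. The beta cell genes G6pc2 (7.47 against at most 5.89), Glp1r (8.28 against at most 7.21), Ucn3 (7.08 against at most 6.24) and Slc2a2 (7.31 against at most 6.66) were higher too, as was the endocrine factor Neurod1 (6.02 against at most 5.35). The prohormone-processing carboxypeptidase Cpe read 7.42 against at most 6.71, and the convertase Pcsk1 7.21 against at most 7.19. Among exocrine genes the largest excess over the median of the other arrays was 0.63, for the trypsinogen Prss2, and the elastase Cela1 read 6.72 inside the range of 6.41 to 6.98. The source of these transcripts was not tested. Leaving the islet genes out of the fit changed none of the 28 calls, and Papss2, a sulfate-activating enzyme, was the only gene outside the islet list that exceeded every other array by more than 1 (by 1.64).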
